A study of Homo sapiens with 12 samples.

Results

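The 10 nuclear genes described here, for mitochondrial chaperones and proteases, were measured in HepG2 cells given doxycycline, the inhibitor A-485 or both: HSPD1, HSPE1, HSPA9, DNAJA3, TRAP1, LONP1, CLPP, CLPX, YME1L1 and SPG7. They were taken from the count table by symbol, and 10 of 10 are among its 13511 genes. The 4 groups held 3 libraries each. The DMSO group received the solvent alone. The A-485 group received 5 µM A-485, which inhibits the acetyltransferase activity of CBP and p300. In the Dox group, labelled as DMSO plus Dox, cells received the solvent and 30 µg/ml doxycycline, and in the A-485 + Dox group they received both compounds. Each group was pretreated with solvent or inhibitor for 1 h and then kept for 24 h with or without doxycycline, with no other antibiotic. All cells were HepG2, a human hepatoma line labelled as wild type, which limits the result to 1 transformed line.

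Most mitochondrial proteins are made in the cytosol, pulled into the organelle unfolded and folded there by chaperones, while proteases remove those that fail to fold or assemble. When mitochondrial translation is blocked, as doxycycline does by acting on mitochondrial ribosomes, subunits encoded in the nucleus are left without their mitochondrially encoded partners. In worms such an imbalance induces mitochondrial chaperone and protease genes, a programme called the mitochondrial unfolded protein response. In mammalian cells the ATF4-driven integrated stress response is a prominent transcriptional answer to it. The 2 by 2 layout asks what each compound does to these genes and whether the doxycycline effect differs while CBP and p300 are inhibited.

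Each library held between 46600324 and 51773300 gene counts, and a member had between 914 and 129731 counts in a library. The hepatocyte markers ALB, AFP, APOA1, APOB, TTR and SERPINA1 were all detected, at a summed 52742 to 53173 CPM (read counts scaled to the TMM-adjusted library total) in the DMSO libraries, 19024 to 19291 with A-485 alone, 42641 to 51186 in Dox and 17353 to 17632 with both compounds. Detected markers of other cell types had low sums: PECAM1 and TIE1 together had 5.54 to 12.5 CPM in all 12 libraries, CD3D and CD14 1.92 to 8.20, and PDGFRB 0.600 to 5.90. The other markers on these lists, CDH5, VWF, KDR, PTPRC, COL1A1 and COL1A2, were not analysed here. Dox replicate 1 stood apart. Its counts differed from those of the other Dox libraries with a chi-square per degree of freedom of 866 and 884, against 1.31 to 3.76 for the other pairs within groups. The common biological coefficient of variation was 20.7% with that library and 1.52% without it. Over the 10 members and 6 comparisons, 23 of 60 results gained a call without it in the same direction, and 8 changed direction. Values without it are given for many of these but not for all. Separate cultures are not mentioned for the replicates, so p-values describe the spread among these libraries, which may be technical. In such bulk RNA, fewer expressing cells and less RNA per cell cannot be told apart.

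Among the members, Dox replicate 1 departed most in HSPE1 and CLPP, the genes with the shortest transcripts. HSPE1, with a principal transcript of 0.950 kb, was 2.46 higher on the log2 scale in Dox replicate 1 than in the mean of Dox replicates 2 and 3, and CLPP, at 1.16 kb, was 1.85 higher. CLPX, at 4.70 kb, was at -1.05 and TRAP1, at 2.30 kb, at -0.89. HSPA9, with the longest transcript at 4.73 kb, and SPG7, at 3.36 kb, were at -0.03 and 0.02, so their Dox levels hardly depended on this library. Beyond HSPE1 and CLPP the departures of the members did not follow transcript length. The values of HSPE1, CLPP, CLPX and TRAP1 in the Dox group therefore rest on which libraries are used.

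**Figure D1:**
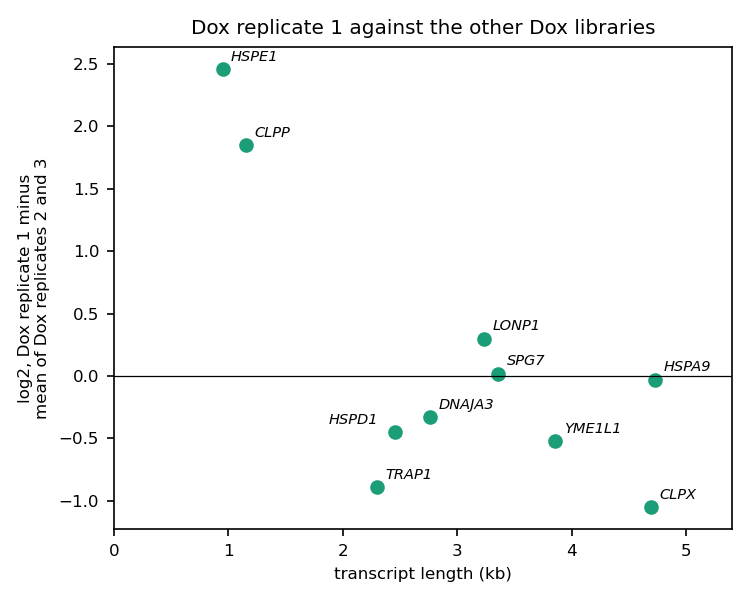
Each point is 1 gene, with the length of its principal transcript in kb on the horizontal axis and the log2 difference of Dox replicate 1 from the mean of Dox replicates 2 and 3 on the vertical axis. HSPE1 and CLPP, the shortest transcripts, lie at 2.46 and 1.85, and CLPX lies at -1.05. HSPA9, the longest, lies at -0.03.

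HSPD1 encodes Hsp60, which forms the folding chamber of the mitochondrial matrix, and HSPE1 encodes Hsp10, the lid of that chamber. The genes lie head to head on chromosome 2. In GENCODE 29 (GRCh38) HSPD1 (ENSG00000144381) spans 197486581 to 197516737 on the minus strand and HSPE1 (ENSG00000115541) spans 197499994 to 197503457 on the plus strand. By the starts in the RefSeq promoter table (GRCh38.p14), the interval between them is 104 bases, chr2:197500275-197500378. This stretch is printed because it is upstream of both RefSeq starts, although it lies inside the GENCODE spans of both genes. It is written 5′ to 3′ on the plus strand, from the side of HSPD1 to the side of HSPE1, with an NRF1 motif (GCGCA, any base, GCGC, on either strand) and an E-box (CACGTG) in capitals.
HSPD1 to HSPE1: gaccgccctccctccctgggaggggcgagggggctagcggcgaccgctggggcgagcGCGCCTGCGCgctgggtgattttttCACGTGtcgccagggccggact
Both chaperonin genes thus have the same E-box, at positions -22 to -17 from the start of HSPE1 and -88 to -83 from that of HSPD1. Among 35114 promoter windows of the table, 6.35% hold an E-box and 5.07% an NRF1 motif in the 250 bases before the start. A second, downstream start of HSPD1 in the table has instead the paired heat shock units GAANNTTC, at -240 to -233, and TTCNNGAA, at -245 to -238 and -235 to -228, which overlap one another. Of all windows 5.78% and 6.62% hold these units.

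HSPD1 was lower in every library with A-485. The DMSO libraries had 2792, 2784 and 2788 CPM and the A-485 libraries 835, 825 and 809. With both compounds the levels were 717, 740 and 754 CPM. The groups did not overlap, and HSPD1 fell by 1.76 on the log2 scale with A-485 (SE 0.12, edgeR adjusted p = 1e-06), to 0.295 of its DMSO level. In cells with doxycycline the inhibitor lowered it as well, with a log2 change of -1.55 ± 0.12 (edgeR adjusted p = 2.5e-06) and of -1.69 without Dox replicate 1.

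Doxycycline did not raise HSPD1. Its Dox libraries had 1736, 2373 and 2374 CPM, all below the DMSO libraries, and the lowest was Dox replicate 1. The log2 change of -0.37 ± 0.12 narrowly missed the threshold (edgeR adjusted p = 0.061). It passed the test whenever 1 Dox library was left out, at -0.23 without replicate 1 (edgeR adjusted p = 8.3e-17) and -0.44 without replicate 2 or 3 (edgeR adjusted p = 0.04 and 0.038). On top of A-485, doxycycline gave -0.16 ± 0.12 (edgeR adjusted p = 0.59), a difference that passed the test without that library (edgeR adjusted p = 1.7e-12). Reads of HSPD1 can be shared with processed pseudogenes. The 2 in the table, HSPD1P1 and HSPD1P4, had at most 148 and 107 counts, against 41601 or more for HSPD1. Reads with several alignments are in none of these counts, so they do not show how many reads were shared.

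HSPE1 followed its partner under A-485 but had far fewer reads. It had 67.4, 57.8 and 61.3 CPM in DMSO, 25.6, 25.9 and 27.2 in A-485 and 15.7, 17.9 and 18.2 with both compounds. These 3 groups did not overlap. The log2 change with A-485 was -1.24 ± 0.56, which missed the threshold with all libraries (edgeR adjusted p = 0.09) and passed it, at the same value, without Dox replicate 1 (edgeR adjusted p = 1.6e-11). With both compounds against DMSO it fell by 1.85 (SE 0.57, edgeR adjusted p = 0.02), a call lost without any 1 of the A-485 + Dox libraries (edgeR adjusted p = 0.054 to 0.064). In the Dox group the libraries disagreed, at 195, 36.8 and 34.2 CPM, with replicate 1 above and the others below every DMSO library. The doxycycline change was 0.51 ± 0.56 with all libraries (edgeR adjusted p = 0.53) and -0.81 ± 0.06 without Dox replicate 1 (edgeR adjusted p = 3e-08), so its direction turned with that library. In the same fit the change by doxycycline on top of A-485, -0.61, passed the test (edgeR adjusted p = 1.8e-06), while with all libraries it was -0.60 ± 0.56 (edgeR adjusted p = 0.72). HSPE1 shares 14.2% of its exon length with HSPD1 and 9.71% with the read-through gene HSPE1-MOB4, and reads in such exons may be missing from its counts.

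Per kb of principal transcript, HSPD1 stood at 16.0 to 18.6 times HSPE1 in the DMSO libraries and at 11.5 to 12.6 times in the A-485 libraries. With both compounds the ratio was 16.0 to 17.6, and in Dox it was 3.44, 24.9 and 26.8, the lowest again in replicate 1. The proteins work together, but reads may be missing from HSPE1. The ratio therefore describes these counts and may differ from that of the transcripts in the cell.

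HSPA9 encodes mortalin, the Hsp70 of the matrix, which pulls in and folds imported proteins, and DNAJA3 encodes a J-domain co-chaperone that stimulates it. HSPA9 (ENSG00000113013) lies on chromosome 5, 138553756 to 138575724, and DNAJA3 (ENSG00000103423) on chromosome 16, 4425805 to 4456775. These genes moved in opposite directions with the 2 compounds, so their upstream bases are shown. They are the 250 bases before the RefSeq start, chr5:138575402-138575651 on the minus strand for HSPA9 and chr16:4425618-4425867 on the plus strand for DNAJA3, with E-boxes and NRF1 motifs in capitals.
HSPA9: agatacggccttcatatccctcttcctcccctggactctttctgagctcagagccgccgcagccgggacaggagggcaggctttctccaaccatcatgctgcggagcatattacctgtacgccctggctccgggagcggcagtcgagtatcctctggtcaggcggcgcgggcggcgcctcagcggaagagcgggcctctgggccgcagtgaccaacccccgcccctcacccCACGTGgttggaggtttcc
DNAJA3: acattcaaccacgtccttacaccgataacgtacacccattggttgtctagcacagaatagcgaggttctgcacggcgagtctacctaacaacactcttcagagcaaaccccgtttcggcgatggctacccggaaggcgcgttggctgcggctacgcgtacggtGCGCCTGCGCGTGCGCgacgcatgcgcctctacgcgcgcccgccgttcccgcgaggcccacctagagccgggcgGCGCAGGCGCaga
HSPA9 has 1 E-box, at -19 to -14. DNAJA3 has 3 NRF1 motifs, of which the upstream 2 overlap, and no E-box in this window. The whole HSPA9 window lies inside the GENCODE span of HSPA9, and the DNAJA3 window lies partly inside that of DNAJA3.

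HSPA9 rose with doxycycline and fell with A-485. Its DMSO libraries had 488 ± 5.33 CPM (SD, n = 3) with a highest value of 495, and its Dox libraries 713, 724 and 730. The A-485 libraries had 284, 289 and 283 CPM and those with both compounds 351, 352 and 351, so no group overlapped another. The doxycycline change was 0.56 ± 0.06 on the log2 scale (edgeR adjusted p = 0.00025) and the A-485 change -0.78 ± 0.06 (edgeR adjusted p = 2.3e-06). In A-485-treated cells doxycycline still raised HSPA9, by 0.30 ± 0.06 (edgeR adjusted p = 0.013). Leaving out any 1 A-485 or A-485 + Dox library ended that call at the same size (edgeR adjusted p = 0.063 to 0.077), while leaving out Dox replicate 1 kept it (edgeR adjusted p = 2.2e-22). Library totals and the exonic length offset also ended it, at 0.30 and 0.29 (edgeR adjusted p = 0.22 and 0.11). Under both compounds it was below DMSO, at -0.48 ± 0.06 (edgeR adjusted p = 7.1e-05), but with library totals in place of TMM that difference was -0.13, short of the threshold (edgeR adjusted p = 0.38).

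DNAJA3 had the same order of groups. It had 125, 128 and 128 CPM in DMSO and 155, 198 and 192 in Dox, against 61.2, 61.5 and 60.3 in A-485 and 79.4, 78.7 and 79.2 with both compounds. No groups overlapped, and Dox replicate 1 was the lowest of its group. DNAJA3 rose by 0.52 ± 0.09 with doxycycline alone (edgeR adjusted p = 0.0037) and by 0.38 ± 0.09 on top of A-485 (edgeR adjusted p = 0.03). The latter call was lost without any 1 of the DMSO, A-485 or A-485 + Dox libraries (edgeR adjusted p = 0.057 to 0.12) and held without Dox replicate 1 (edgeR adjusted p = 2.8e-20). Library totals ended it as well, at 0.37 (edgeR adjusted p = 0.32). It fell by 1.06 with A-485 (SE 0.09, edgeR adjusted p = 4.2e-06) and by 1.20 in doxycycline-treated cells (SE 0.09, edgeR adjusted p = 1.8e-06). Scaled by library totals, the rise with doxycycline alone, at 0.48, and the fall under both compounds against DMSO, at -0.33, missed the threshold (edgeR adjusted p = 0.1 and 0.12). The HSPA9 to DNAJA3 ratio per kb was 2.22 to 2.28 in DMSO and 2.71 to 2.74 in A-485, without overlap between these groups.

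**Figure D2:**
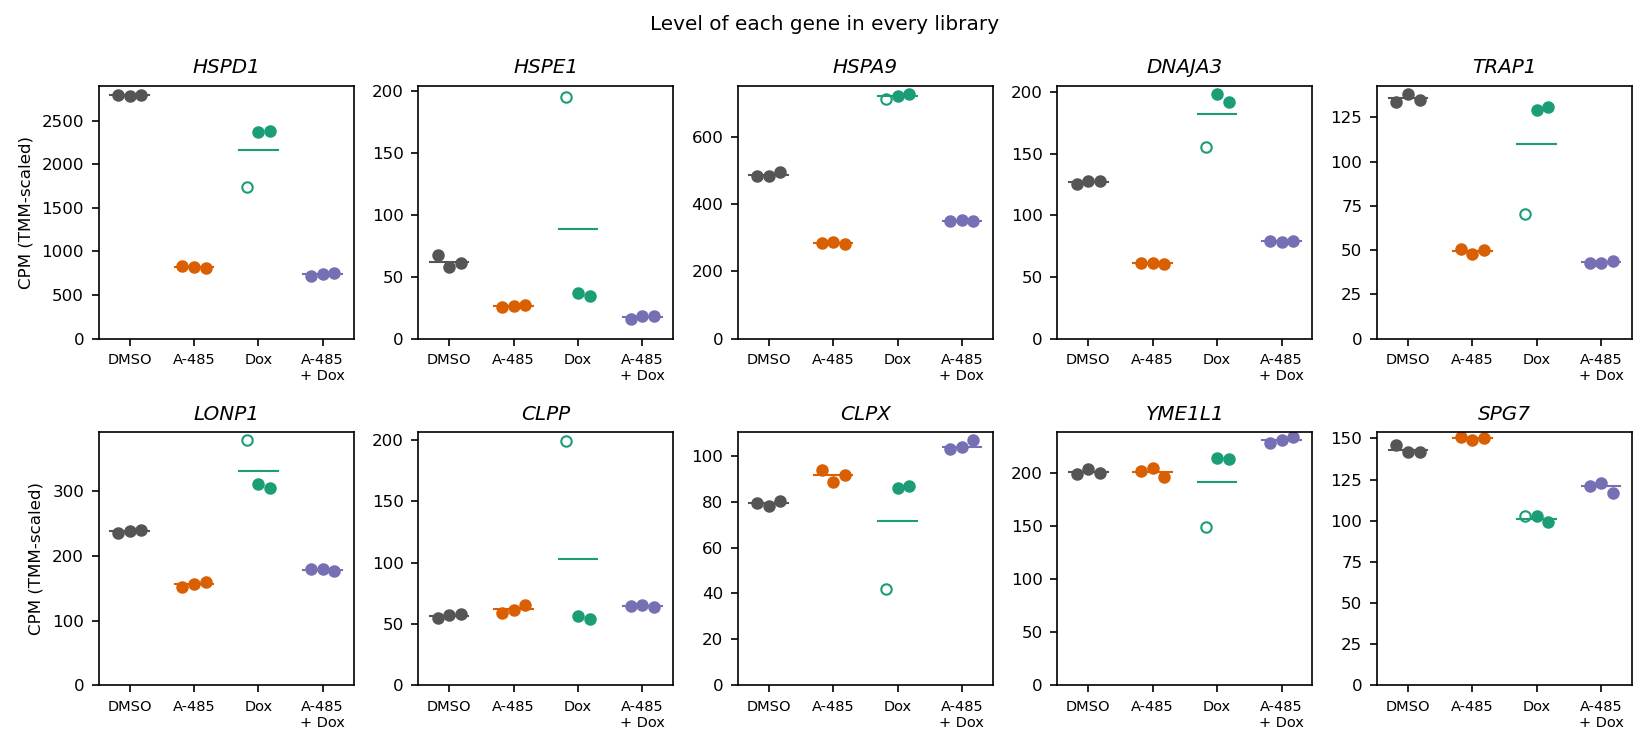
Each panel gives 1 gene, with CPM on TMM-scaled totals on a vertical axis from 0 and the 4 groups side by side; points are libraries, lines are group means and the open point is Dox replicate 1. HSPA9 and DNAJA3 are highest in Dox and lowest in A-485, and HSPD1 lies at 835 CPM or less in every library with A-485.

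TRAP1, the mitochondrial member of the Hsp90 family, is encoded on chromosome 16 at 3651639 to 3717597 (ENSG00000126602). Its upstream region (chr16:3717525-3717774, minus strand) is shown because it alone among the windows of the members holds a cAMP response element, TGACGTCA. This palindrome is bound by CREB and ATF family factors. The element is in capitals.
TRAP1: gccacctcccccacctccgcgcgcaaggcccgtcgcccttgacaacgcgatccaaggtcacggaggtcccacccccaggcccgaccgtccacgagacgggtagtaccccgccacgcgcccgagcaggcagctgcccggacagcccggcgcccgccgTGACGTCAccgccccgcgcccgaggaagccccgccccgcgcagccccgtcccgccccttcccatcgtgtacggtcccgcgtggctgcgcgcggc
It lies at -94 to -87 from the start, and 1.65% of all promoter windows hold one. Part of the window lies inside the GENCODE span of TRAP1. The window also has the estrogen-related receptor half-site AAGGTCA, present in 3.44% of windows. A sequence match is a description and does not show that a factor binds.

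TRAP1 fell with A-485 whether or not doxycycline was present. It had 134, 138 and 135 CPM in DMSO and 50.6, 47.6 and 50.2 in A-485, a change of -1.45 ± 0.20 (edgeR adjusted p = 0.00014). The Dox libraries had 70.3, 129 and 131 CPM, and those with both compounds 42.8, 42.7 and 43.9, a change of -1.35 ± 0.20 (edgeR adjusted p = 0.00023). No library with A-485 reached any library without it. Doxycycline alone gave -0.30 ± 0.19 (edgeR adjusted p = 0.29), most of it from replicate 1, since the value was -0.06 without that library (edgeR adjusted p = 0.034). On top of A-485 it gave -0.20 ± 0.19 (edgeR adjusted p = 0.74), which passed the test without Dox replicate 1 (edgeR adjusted p = 1.1e-08). TRAP1 shares 29.3% of its exon length with DNASE1 on the other strand, and whether its reads were counted by strand is unknown from the sources used here.

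LONP1 encodes the ATP-dependent matrix protease Lon, which degrades oxidised and unassembled proteins and binds mitochondrial DNA. It lies on chromosome 19, 5691834 to 5720572 (ENSG00000196365). The bases upstream of 1 of its RefSeq starts (chr19:5720147-5720396, minus strand) are shown with E-boxes in capitals, as this window holds the motif in 2 places.
LONP1: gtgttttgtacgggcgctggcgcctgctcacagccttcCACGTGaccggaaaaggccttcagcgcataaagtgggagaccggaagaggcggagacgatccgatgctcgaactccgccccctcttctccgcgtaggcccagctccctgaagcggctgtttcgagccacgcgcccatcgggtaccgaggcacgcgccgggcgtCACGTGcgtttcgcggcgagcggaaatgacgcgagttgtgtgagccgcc
The boxes begin at -212 and -49 from that start, and the whole window lies inside the GENCODE span of LONP1. A second, upstream start of LONP1 (window chr19:5720453-5720702) has no E-box but has an NRF1 motif, at -200 to -191.

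LONP1 moved as HSPA9 did. It had 236, 239 and 240 CPM in DMSO and 380, 311 and 306 in Dox, and 152, 157 and 160 in A-485 and 180, 180 and 177 with both compounds. The 4 groups did not overlap. It rose by 0.48 ± 0.09 with doxycycline (edgeR adjusted p = 0.0048), and by 0.37 without Dox replicate 1, its highest library. With A-485 it fell, with a log2 change of -0.61 ± 0.09 (edgeR adjusted p = 0.00016), and of -0.89 ± 0.09 in doxycycline-treated cells (edgeR adjusted p = 1.1e-05). Doxycycline on top of A-485 gave 0.20 ± 0.08, short of the threshold (edgeR adjusted p = 0.24) and past it without Dox replicate 1 (edgeR adjusted p = 3.9e-13). Under both compounds LONP1 was below DMSO, at -0.41 ± 0.09 (edgeR adjusted p = 0.0021), and at -0.06 by library totals (edgeR adjusted p = 0.47). Relative to LONP1, HSPD1 per kb went from 15.3 to 15.6 times in the DMSO libraries to 6.67 to 7.26 times in those with A-485 alone.

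The ClpXP protease pairs the peptidase CLPP with CLPX, the unfoldase that feeds it. CLPP (ENSG00000125656) lies on chromosome 19, 6361452 to 6368910, and CLPX (ENSG00000166855) on chromosome 15, 65148219 to 65185342. Neither fell with A-485. CLPP had 54.4, 56.8 and 58.0 CPM in DMSO and 58.9, 61.3 and 65.4 in A-485, a change of 0.13 ± 0.42 (edgeR adjusted p = 0.81), which passed the test without Dox replicate 1 (edgeR adjusted p = 8.9e-05). It had 64.5, 65.3 and 63.7 CPM with both compounds, and in Dox it had 199, 56.6 and 53.9. Dox replicate 1 lay far above all other libraries, and the other Dox libraries overlapped those of DMSO. The doxycycline change was 0.87 ± 0.42 with all libraries (edgeR adjusted p = 0.18) and -0.03 ± 0.04 without that one (edgeR adjusted p = 0.48), so doxycycline alone gave no call for CLPP in either fit. The effect of A-485 in doxycycline-treated cells turned from -0.67 ± 0.42 (edgeR adjusted p = 0.19) to 0.22 ± 0.03 (edgeR adjusted p = 5e-08).

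CLPX had 79.5, 78.1 and 80.4 CPM in DMSO, 94.1, 88.7 and 91.8 in A-485 and 103, 104 and 107 with both compounds. These 3 groups were in ascending order without overlap. The change with A-485 was 0.21 ± 0.22 (edgeR adjusted p = 0.46), and that with both compounds 0.40 ± 0.22 (edgeR adjusted p = 0.15). Leaving out Dox replicate 1 kept the values and narrowed the SE to 0.02, and both passed the test (edgeR adjusted p = 4.4e-11 and 1.3e-21). The Dox libraries had 41.8, 86.1 and 86.7 CPM, with replicate 1 below and the others above every DMSO library. The doxycycline change was -0.15 ± 0.22 (edgeR adjusted p = 0.65), and 0.12 ± 0.03 without replicate 1 (edgeR adjusted p = 0.00013). The CLPX to CLPP ratio per kb was 0.339 to 0.360 in DMSO, 0.346 to 0.394 in A-485 and 0.392 to 0.413 with both compounds. In Dox replicate 1 it was 0.0519, against 0.375 and 0.396 in the other Dox libraries.

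YME1L1 and SPG7 are zinc proteases of the inner membrane that carry an ATPase domain. YME1L1 faces the intermembrane space and processes the fusion protein OPA1, while SPG7, or paraplegin, joins AFG3L2 in the protease that faces the matrix. YME1L1 (ENSG00000136758) is on chromosome 10, 27110112 to 27155266, and SPG7 (ENSG00000197912) on chromosome 16, 89490719 to 89557768. YME1L1 overlapped between DMSO and A-485, at 199, 204 and 200 CPM in DMSO and 202, 205 and 196 in A-485. The log2 change was 0.00 ± 0.12 (edgeR adjusted p = 0.99), and 0.00 ± 0.02 without Dox replicate 1 (edgeR adjusted p = 0.93). With both compounds it had 228, 231 and 234 CPM, above all other libraries. Against A-485 alone this was 0.20 ± 0.12 (edgeR adjusted p = 0.46), and it passed the test without Dox replicate 1 at the same value (edgeR adjusted p = 5.7e-14). The Dox libraries had 149, 214 and 213 CPM. The doxycycline change was -0.06 ± 0.12 (edgeR adjusted p = 0.72), and 0.09 ± 0.02 without Dox replicate 1 (edgeR adjusted p = 0.00028).

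With all 12 libraries SPG7 was called lower with doxycycline in both backgrounds. Without Dox replicate 1 so were HSPD1, HSPE1 and TRAP1. It had 146, 142 and 142 CPM in DMSO and 103, 103 and 98.9 in Dox. With A-485 it had 151, 149 and 150, and with both compounds 121, 123 and 117. The groups did not overlap, and the 3 Dox libraries stood together. Doxycycline gave -0.50 ± 0.06 (edgeR adjusted p = 0.00035) and, on top of A-485, -0.32 ± 0.06 (edgeR adjusted p = 0.0072). An offset for exonic length ended both calls, at -0.21 and -0.35 (edgeR adjusted p = 0.46 and 0.37), and library totals ended the latter, at -0.32 (edgeR adjusted p = 0.15). In the presence of doxycycline SPG7 was higher with A-485, at 0.25 ± 0.06 (edgeR adjusted p = 0.0034), while A-485 alone gave 0.07 ± 0.06 (edgeR adjusted p = 0.32), which passed the test without Dox replicate 1 (edgeR adjusted p = 0.0016). The length offset turned the former to -0.25, and library totals took the latter to 0.42 (edgeR adjusted p = 0.0085). Under both compounds it was below DMSO at -0.25 ± 0.06 (edgeR adjusted p = 0.0033), a direction that library totals turned to 0.10 (edgeR adjusted p = 0.46) and a call that the length offset ended, at -0.46 (edgeR adjusted p = 0.068). The YME1L1 to SPG7 ratio per kb went from 1.19 to 1.25 in DMSO to 1.63 to 1.73 with both compounds, and was 1.27, 1.81 and 1.88 in Dox. SPG7 and CLPX have NRF1 motifs but no E-box in their RefSeq windows, and those of SPG7 lie inside its GENCODE span. CLPP and YME1L1 were not matched in that table, which holds 8 of the 10 members.

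**Figure D3:**
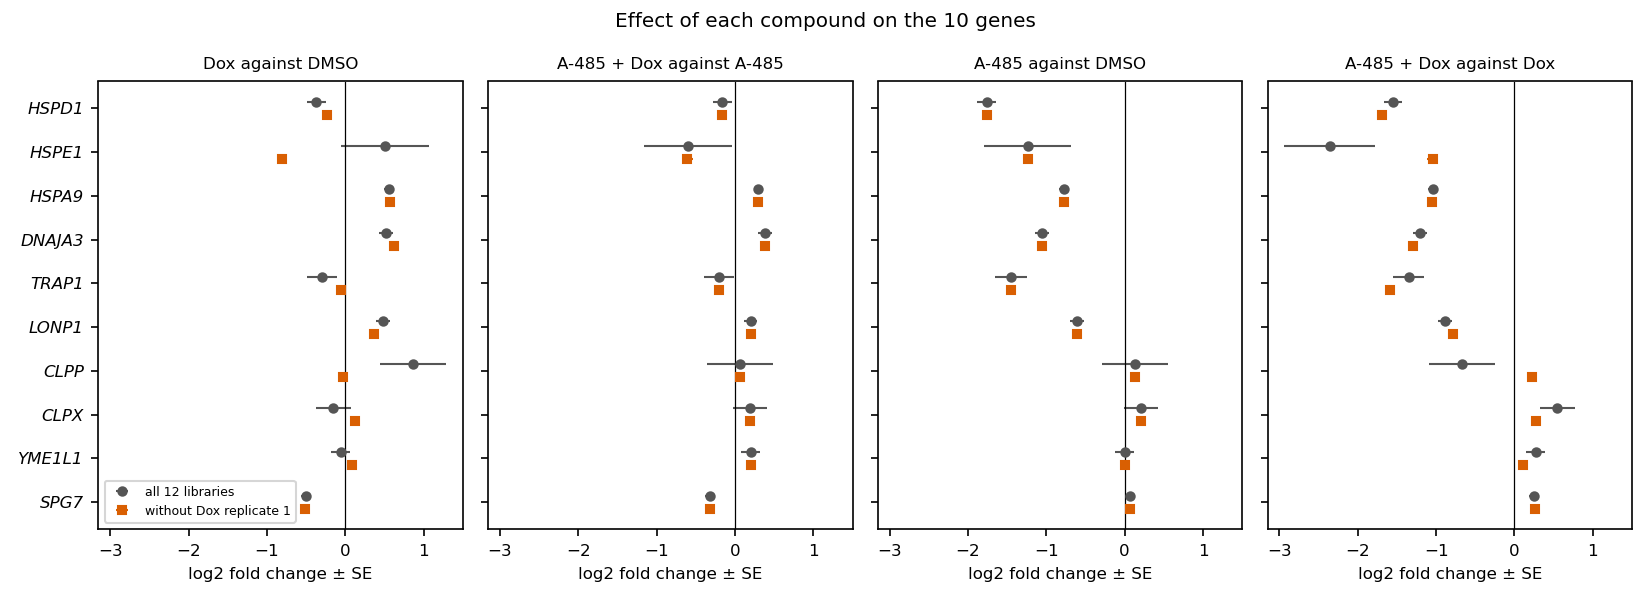
The 4 panels give the log2 fold change of each gene for the comparison named above the panel, with bars of 1 SE; circles use all 12 libraries and squares leave out Dox replicate 1. With A-485 the 5 chaperone genes and LONP1 lie left of 0 with or without doxycycline, CLPX, YME1L1 and SPG7 lie at or right of 0, and CLPP changes side only against the Dox group.

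Counted together, 5 of the 10 members were called lower with A-485 and 0 higher, at an adjusted p under 0.05 in edgeR. Of all genes tested, 27.1% were called lower and 26.3% higher. The 5 were HSPD1, HSPA9, DNAJA3, TRAP1 and LONP1, and HSPE1 joined them without Dox replicate 1. No member was called higher at an unadjusted p under 0.05 in edgeR (0), and DESeq2 called 0 higher and limma with library weights 3. The shares of all genes called by DESeq2 and limma are not given here. Without Dox replicate 1 there were 6 lower and 3 higher (CLPP, CLPX and SPG7), in a background of 43.7% and 46.6%. The members' median log2 change was -0.69, against 0.04 over all genes. With library totals the median of all genes moved from 0.04 to 0.39, and the 5 falls still passed the test there, from -1.41 for HSPD1 to -0.26 for LONP1.

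In doxycycline-treated cells A-485 gave 6 members lower and 1 higher, where 32.9% of all genes were called lower and 27.1% higher. The members' median was -0.97, against -0.06 over all genes. The 6 were the 5 above and HSPE1, and the 1 was SPG7. When Dox replicate 1 was left out the counts were 6 and 4, against 43.6% and 44.2% of all genes. Both compounds against DMSO gave 7 members lower and 0 higher in edgeR, in a background of 28.5% and 27.4%, with a median of -0.44 against 0.03. At an unadjusted p under 0.05 the count higher was 0 as well, DESeq2 called 0 and limma with library weights 3. That fit without Dox replicate 1 gave 7 lower and 3 higher, against 43.9% and 46.5% of all genes. By library totals 3 were lower and 1 higher. For DESeq2, limma and library totals the shares of all genes called are not given here. These comparisons share groups with one another, so the counts are not separate evidence.

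Doxycycline alone gave 3 members higher (HSPA9, DNAJA3 and LONP1) and 1 lower (SPG7), where 9.01% of all genes were called higher and 7.08% lower. The members' median was 0.21 against 0.03 over all genes. Leaving out Dox replicate 1 gave 5 higher and 4 lower, against 32.8% and 33.3% of all genes, and a median of 0.03 against -0.00. On top of A-485, doxycycline gave 2 members higher (HSPA9 and DNAJA3) and 1 lower (SPG7), against 3.74% and 3.66% of all genes, with medians of 0.13 and -0.02. There, 5 were higher and 4 lower without that library, in a background of 29.9% and 36.1%. By library totals 0 members passed the test in either direction on top of A-485, and the share of all genes is not given for that scaling.

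The difference between the doxycycline effects with and without A-485 was tested as an interaction. In edgeR 0 members passed the test with all 12 libraries, where 1.25% of all genes were higher and 1.32% lower. At an unadjusted p under 0.05 there were 3, HSPA9 at -0.26 ± 0.08, LONP1 at -0.28 ± 0.12 and SPG7 at 0.18 ± 0.08 (edgeR adjusted p = 0.15, 0.3 and 0.32). DESeq2 called 1 higher and 1 lower, SPG7 and HSPA9, and limma with library weights called 5 and 4. The shares of all genes called by DESeq2 and limma are not given here, so these counts have no background. In the fit without Dox replicate 1 the counts were 3 higher and 4 lower, with 21.8% and 26.6% of all genes. HSPA9 was then at -0.27 ± 0.02, DNAJA3 at -0.25 ± 0.03 and LONP1 at -0.18 ± 0.03 (edgeR adjusted p = 5.1e-14, 6.6e-09 and 5.3e-07). In that fit the doxycycline rise of these 3 genes was thus smaller with A-485, and the fall of SPG7 was smaller too, with an interaction of 0.19 ± 0.03 (edgeR adjusted p = 2.5e-06). TRAP1, at -0.14, HSPD1, at 0.07, and YME1L1, at 0.11, were the other members called.

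**Figure D4:**
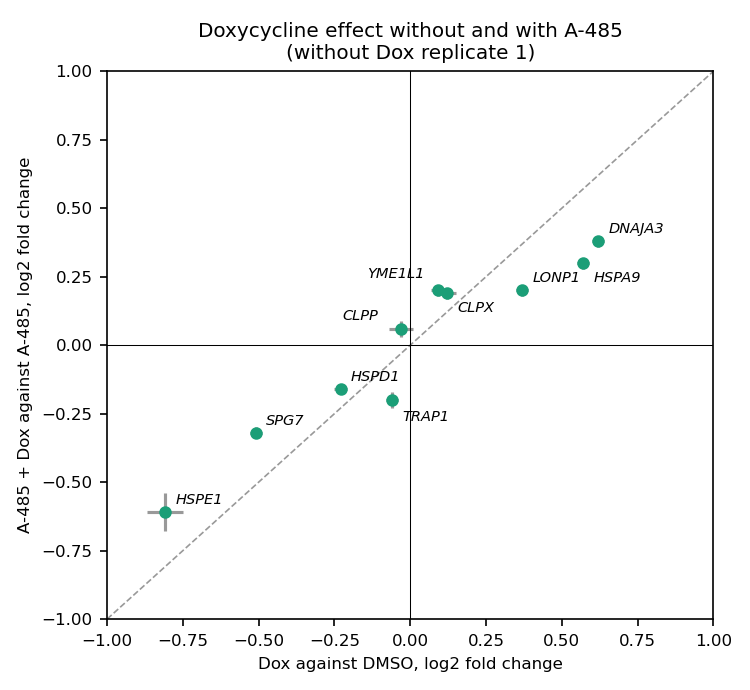
Each point is 1 gene in the fit without Dox replicate 1, with the log2 change by doxycycline alone on the horizontal axis and on top of A-485 on the vertical axis, bars of 1 SE and a dashed line of equal effects. HSPA9, DNAJA3 and LONP1 lie below the line on the positive side, at 0.57 against 0.30, 0.62 against 0.38 and 0.37 against 0.20.

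Per kb of principal transcript, HSPD1 had by far the highest level in every group. In DMSO it had 1136 CPM per kb, followed by HSPA9 at 103, LONP1 at 73.7, HSPE1 at 65.5 and TRAP1 at 59.1. YME1L1 had 52.1, CLPP 48.7, DNAJA3 45.9, SPG7 42.7 and CLPX 16.9. No neighbours in this DMSO order overlapped between libraries. In A-485 the order after HSPD1 and HSPA9 was CLPP at 53.5, YME1L1 at 52.2, LONP1 at 48.3, SPG7 at 44.8, HSPE1 at 27.7, DNAJA3 at 22.1, TRAP1 at 21.5 and CLPX at 19.5. The pairs CLPP and YME1L1, and DNAJA3 and TRAP1, overlapped there. With both compounds HSPE1, at 18.2, was the lowest and overlapped TRAP1 at 18.8, and CLPP overlapped LONP1.

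Summed per kb, the 10 genes had 1638 to 1646 CPM per kb in the DMSO libraries and 1517 to 1536 in Dox. In A-485 they had 683 to 687 and with both compounds 659 to 676. HSPD1 made up 69.0 to 69.2% of the sum in DMSO, 48.3 to 49.6% in A-485 and 44.3 to 45.4% with both compounds. In Dox the share was 46.6, 62.9 and 63.3%, below DMSO in each library and lowest in replicate 1. The level of HSPD1 itself went from 1136 to 335 CPM per kb with A-485. The inner membrane proteases summed to 94.0 to 95.2 CPM per kb in DMSO and to 95.6 to 97.7 in A-485.

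**Figure D5:**
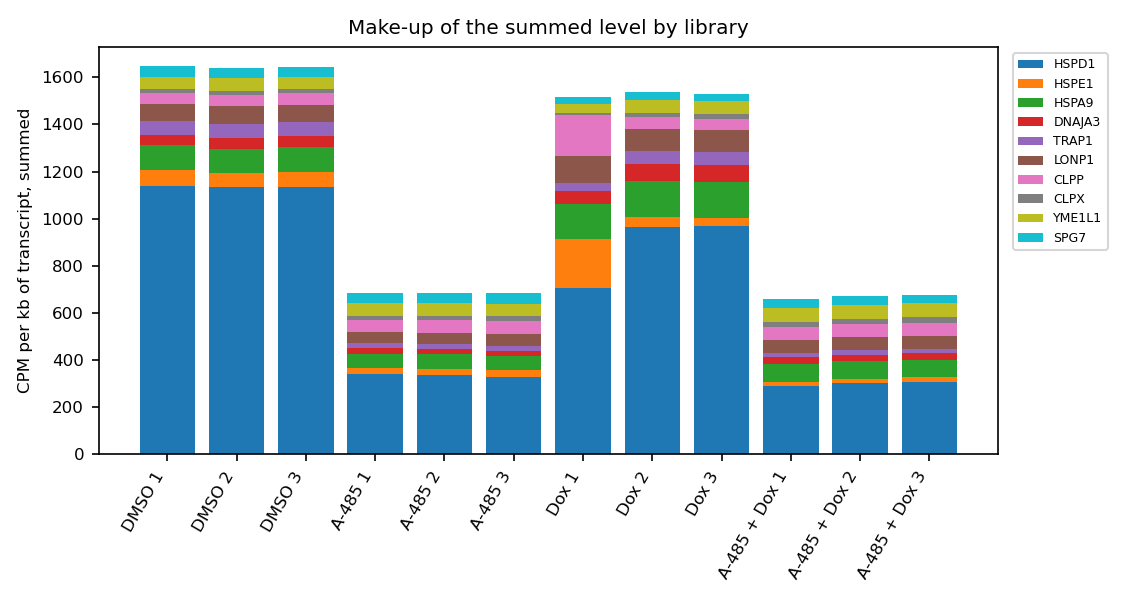
Each bar is 1 library, with the CPM per kb of principal transcript of the 10 genes stacked on an axis from 0. The sum is 1638 to 1646 in DMSO and 683 to 687 in A-485, and HSPD1 is the largest segment in every library.

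The other genes of mitochondrial protein quality control are given by list, and their counts are to be read against the shares of all genes. With A-485 these were 27.1% lower and 26.3% higher, and 43.7% and 46.6% without Dox replicate 1. With doxycycline alone they were 7.08% lower and 9.01% higher, and 33.3% and 32.8% without that library. On top of A-485 they were 3.66% lower and 3.74% higher. Of 8 measured further chaperones and co-chaperones 4 were called lower and 0 higher with A-485 (6 and 1 when Dox replicate 1 was omitted), and their median was -0.45. GRPEL2 and GRPEL1, the nucleotide exchange factors of HSPA9, changed by -1.03 ± 0.15 and -0.57 ± 0.09 (edgeR adjusted p = 0.00028 and 0.00032). With doxycycline alone 2 of the 8 were higher, TIMM44, which tethers HSPA9 to the import channel, at 1.26 ± 0.23 and GRPEL2 at 0.69 ± 0.15 (edgeR adjusted p = 0.006 and 0.014). TIMM44 was at 0.85 without Dox replicate 1, where 3 of the 8 were higher and 4 lower. On top of A-485 the 1 gene called with all 12 libraries was GRPEL2, at 1.21 ± 0.15 (edgeR adjusted p = 0.0015). It went from 8.92 ± 0.346 CPM (SD, n = 3) in A-485 to 20.6 ± 0.550 with both compounds. Without Dox replicate 1, 4 of the 8 were higher and 3 lower there, against 29.9% and 36.1% of all genes.

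Of 14 further proteases and processing peptidases 6 were lower and 1 higher with A-485 (8 and 3 when Dox replicate 1 was omitted), and their median was -0.23. MIPEP, which trims imported proteins, changed by -1.18 ± 0.06, the ATP synthase assembly protease ATP23 by -0.89 ± 0.10 and the aminopeptidase XPNPEP3 by -0.65 ± 0.08 (edgeR adjusted p = 2e-07, 2.6e-05 and 9.7e-05). Doxycycline alone gave 2 higher and 2 lower (3 and 4 when Dox replicate 1 was omitted). METAP1D was higher, at 0.34 ± 0.08 (edgeR adjusted p = 0.016). The presequence peptidase PITRM1, at -0.35 ± 0.06, and MIPEP, at -0.27 ± 0.06, were lower (edgeR adjusted p = 0.0054 and 0.017). The scaffold list held PHB, PHB2, STOML2 and AFG1L, the last an ATPase. Of these 4 genes 2 were lower with A-485 and 0 higher (4 and 0 without Dox replicate 1). PHB, a prohibitin that surrounds the inner membrane proteases, went from 221 ± 3.93 to 111 ± 1.89 CPM (SD, n = 3, edgeR adjusted p = 0.0037), and STOML2, which assembles with YME1L1, changed by -0.77 ± 0.23 (edgeR adjusted p = 0.016). With doxycycline 0 of these 4 were called in edgeR. Without Dox replicate 1 there were 1 higher (AFG1L) and 3 lower (PHB, PHB2 and STOML2).

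Of 12 regulators linked to these genes 4 rose and 0 fell with doxycycline (7 and 2 without Dox replicate 1). They include ATF4, the main factor of the integrated stress response, which had 175 ± 2.91 CPM in DMSO and 586 ± 22.1 in Dox (SD, n = 3), 114 ± 1.30 in A-485 and 570 ± 5.88 with both compounds. Its doxycycline change was thus larger on top of A-485, with an interaction of 0.58 ± 0.09 (edgeR adjusted p = 0.0083). ATF5, a factor that is known to drive mitochondrial stress genes in mammalian cells, had 17.8 ± 0.346 CPM in DMSO, 55.0 ± 33.4 in Dox (35.7 without replicate 1), 25.0 ± 0.278 in A-485 and 24.0 ± 0.302 with both compounds. Its interaction was -1.68 ± 0.45 (edgeR adjusted p = 0.092), and -1.06 without Dox replicate 1 (edgeR adjusted p = 2.8e-23). With A-485 alone 2 of the 12 were higher and 3 lower (5 and 6 without Dox replicate 1). DELE1, which relays mitochondrial stress to the integrated stress response, changed by 0.83 ± 0.06 (edgeR adjusted p = 1e-06).

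The genes whose profiles lay closest to 4 members were sought among 9584 others, by the root mean square difference of log2 CPM from the DMSO mean over 11 libraries (Dox replicate 1 left out). For HSPD1 they were HADH, RPS6KA3 and IDH2, at differences of 0.054, 0.056 and 0.063. HADH and IDH2 encode mitochondrial enzymes of fatty acid oxidation and of isocitrate conversion. Whether genes for mitochondrial proteins are more frequent among close profiles than among all 9584 genes was not tested. LARS and FAM86DP were closest to HSPA9, at 0.061 and 0.071, and B4GALT1, ZFAND2A and GAS5 to DNAJA3, at 0.032, 0.046 and 0.047. For SPG7 they were ATP5MC3, ATP5F1E and PGAM1, at 0.038, 0.050 and 0.051. ATP5MC3 and ATP5F1E encode subunits of the ATP synthase. Both, like PGAM1, had a negative doxycycline difference and a small positive A-485 one, as SPG7 had. ATP5MC3 was at -0.52 and 0.11, PGAM1 at -0.44 and 0.09, and SPG7 at -0.50 and 0.07. The genes were chosen by these same values, so their likeness to SPG7 is not a separate result.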

How the data were processed

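Poly(A)-enriched RNA was sequenced on the BGISeq500 platform, per the labels. Raw read counts per Ensembl gene are what the authors deposited; STAR 2.6.0a, HTSeq 0.10.0 and GRCh38 are named in the submitters' processing notes, and the annotation release and strand setting are not given in the sources used here. Every gene exceeds 1 CPM in at least 2 libraries, so lower genes were not analysed here. Rows that name no gene (ambiguous 9.10 to 12.3% of reads, several alignments 2.96 to 3.76%, outside genes 3.30 to 4.09%, unmapped 1.80 to 8.93%) were left out. All 13511 identifiers were found in GENCODE 29, which gave positions, exon overlaps and, for levels per kb, the APPRIS principal transcript with the longest coding sequence.

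Counts were tested in R 4.3.3 with edgeR 4.0.16 (filterByExpr, which removed 0 genes, TMM, robust glmQLFit and glmQLFTest, 1 coefficient per group, all 12 libraries), with Benjamini-Hochberg adjustment over all genes and calls at an adjusted p under 0.05. SE was derived from the fold change and F. All comparisons share 1 estimate of spread, which includes Dox replicate 1. Alternatives were library totals, DESeq2 size factors, a filter of 10 CPM in 3 libraries, no filter, DESeq2 1.42.0, limma 3.58.1 with library weights (0.00376 for Dox replicate 1), a replicate block, a loess offset on exonic length, and each library left out; the scripts were tested on simulated data. The members and lists were chosen with earlier results of these data known. Named genes are the 10 members, up to 3 genes of smallest p per further list and comparison, and the 3 closest profiles of 4 members (1 of those for HSPA9 is not reported here).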

Additional observations from a re-analysis of the deposited data

Results flagged for a closer look

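ATF4 was the gene named here whose doxycycline effect differed between cells with and without A-485 by a test of the difference itself, with all 12 libraries. The interaction was 0.58 ± 0.09 on the log2 scale (edgeR adjusted p = 0.0083), from a change of 1.75 ± 0.06 without the inhibitor and 2.32 ± 0.06 with it. A-485 alone changed ATF4 by -0.61 ± 0.06 (edgeR adjusted p = 1.5e-05). With doxycycline its level was 586 ± 22.1 CPM without A-485 and 570 ± 5.88 with it (SD, n = 3). All 3 libraries with both compounds were above all 3 with A-485 alone. That gap concerns the doxycycline effect under A-485 and not the difference between effects. Without Dox replicate 1 the interaction was 0.61. Groups of 3 libraries are too small for the test for a single outlying sample.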

How the results depend on the processing

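Leaving out Dox replicate 1, or weighting it down with limma, changed more calls of members than the other planned choices. Leaving out 1 library at a time gave 3 to 5 members higher and 1 to 4 lower with doxycycline alone, 0 to 3 and 5 to 6 with A-485 alone, 0 to 3 and 6 to 7 with both compounds against DMSO, 1 to 4 and 6 to 6 with both against Dox, 0 to 5 and 1 to 4 with both against A-485, and 0 to 3 and 0 to 4 for the interaction; the high ends above the reported counts are those without Dox replicate 1, and leaving out Dox replicate 3 also gave the 6 with A-485 alone. Without Dox replicate 2 or 3 there were 2 lower with doxycycline alone and 3 higher with both against Dox. Limma with library weights gave 5 higher and 4 lower with doxycycline alone, 3 higher with A-485 alone and with both against DMSO, 4 higher with both against Dox, 6 and 4 with both against A-485, and 5 and 4 for the interaction. The replicate block changed the calls of HSPA9 and DNAJA3 on top of A-485 (0 members higher in place of 2; edgeR adjusted p = 0.053 and 0.063) and no other call of a member. Without Dox replicate 1, a block chosen after seeing the data gave 5 higher and 3 lower with doxycycline alone, 3 higher with A-485 alone and with both against DMSO, 4 higher with both against Dox, 6 and 4 with both against A-485, and 4 and 4 for the interaction. The replicate numbers gave no clear sign of pairing: 1 of 18 same-numbered pairs had a correlation of deviations over 0.1, with a range of -0.317 to 0.148. Deviations within the Dox group are dominated by replicate 1, so this check cannot decide whether libraries were paired. Library totals gave 1 higher with A-485 alone, 1 higher and 3 lower with both against DMSO, 3 higher with both against Dox, and 0 and 0 with both against A-485. DESeq2 gave 2 lower with doxycycline alone, 2 higher with both against Dox and 1 and 1 for the interaction; the filter of 10 CPM gave 2 lower and 3 higher in the first 2 of these. The length offset gave 1 and 0 with both against A-485. Filtering nothing and DESeq2 size factors moved no member count. Shares of all genes called are given only for edgeR with all 12 libraries and for the fit without Dox replicate 1. Member counts from the other choices therefore have no background here. The cause of these shifts was not tested.

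Leaving out 1 library at a time spanned, for the doxycycline change, -0.81 to 0.90 for HSPE1, -0.03 to 1.18 for CLPP, -0.31 to 0.12 for CLPX and -0.15 to 0.09 for YME1L1; for A-485 in doxycycline-treated cells, -0.98 to 0.22 for CLPP; for the interaction, -1.50 to 0.20 for HSPE1, -0.14 to 0.24 for TRAP1 and -1.12 to 0.09 for CLPP; and for YME1L1 with A-485, -0.01 to 0.02. With limma weights, without Dox replicate 1 and in the added block, the doxycycline change was -0.81, -0.81 and -0.80 for HSPE1, -0.03, -0.03 and -0.05 for CLPP, 0.12, 0.12 and 0.13 for CLPX and 0.09, 0.09 and 0.08 for YME1L1. In the same order the effect of A-485 in doxycycline-treated cells was 0.22, 0.22 and 0.24 for CLPP, and the interaction was 0.21, 0.20 and 0.20 for HSPE1, -0.12, -0.14 and -0.14 for TRAP1 and 0.09, 0.09 and 0.11 for CLPP. The length offset gave -0.02 for HSPE1 with doxycycline, -0.09 for YME1L1 and -0.11 for SPG7 with A-485, and -0.25 and -0.14 for SPG7 with both against Dox and in the interaction. SPG7 has 36008 bases of annotated exons but a principal transcript of 3359, so its offset follows a length its mRNA does not have. YME1L1, with A-485 at 0.00, was at -0.02 with DESeq2 size factors and with DESeq2. Library totals turned SPG7 with both against DMSO to 0.10.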
